A study of Mus musculus with 8 samples.

Results

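The growth factor interleukin-2 and the 3 chains of its receptor were followed through both experiments of the series as 4 genes, Il2, Il2ra, Il2rb and Il2rg. They were taken by gene symbol from the 2 deposited tables, which list 49490 and 55291 genes, and all 4 were found in both and passed the filter on low values. In the first experiment mouse CD8+ T cells from spleens and lymph nodes, either Trim28 fl/fl (floxed, intact Trim28, labelled WT and called control here) or Trim28-/- (knockout), were activated in vitro. In the second, WT CD8+ T cells of the same tissues were stimulated through CD3 and CD28 for 3 days, either untreated or with an antibody against IL-2 (blocked). Each of the 4 groups had 2 libraries. The sources used here name neither the Cre that deleted Trim28, nor the age or strain of the mice, nor whether the libraries of a group came from separate mice or cultures, so the p-values describe no more than library-to-library spread, part of which could be technical.

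IL-2 is secreted by T cells soon after their antigen receptor and CD28 are engaged, and it acts on the same cells and their neighbours. Its receptor is built from an alpha chain (Il2ra, CD25), which raises the affinity for IL-2 but has no signalling tail to speak of, a beta chain (Il2rb, CD122), which is shared with the IL-15 receptor, and the common gamma chain (Il2rg, CD132), which is shared with the receptors for IL-4, IL-7, IL-9, IL-15 and IL-21. The beta and gamma chains carry the kinases JAK1 and JAK3, which activate STAT5, and in activated T cells STAT5 is known to raise transcription of Il2ra and Il2rb. TRIM28 silences genes and transposable elements to which KRAB zinc finger proteins recruit it.

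The 4 genes lie on 4 chromosomes (GENCODE M21, GRCm38). Il2 (ENSMUSG00000027720.7) spans chr3:37120523-37125959 on the minus strand with 4 exons, and Il2ra (ENSMUSG00000026770.5) spans chr2:11642807-11693193 on the plus strand with 8 exons in its longest transcript. Il2rb (ENSMUSG00000068227.9) spans chr15:78479256-78495271 on the minus strand with 10 exons, and Il2rg (ENSMUSG00000031304.18) spans chrX:101264378-101268255 on the minus strand with 8 exons. Among annotated genes overlapping them, only Gm20489 shared exon sequence, with Il2rg on the same strand, and its values lay between 0 and 2.03 in all 8 libraries. Stretches of 2 promoters just before the start of transcription are shown because Il2 fell most of the 4 genes in the knockout and Il2ra is the chain with the highest read count. Each is written 5′ to 3′ on the strand of its gene, from RefSeq on GRCm38.p6, and capitals mark the core of the site for NFAT, a factor that T cell receptor signals send to the nucleus, searched as GGAAA on both strands.
Il2, chr3:37125960-37126204, minus strand: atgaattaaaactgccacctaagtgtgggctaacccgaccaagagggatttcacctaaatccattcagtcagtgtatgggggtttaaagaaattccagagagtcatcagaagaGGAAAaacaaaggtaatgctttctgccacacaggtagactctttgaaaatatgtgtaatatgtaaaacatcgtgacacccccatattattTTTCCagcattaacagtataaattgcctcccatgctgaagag
Il2ra, chr2:11642542-11642791, plus strand: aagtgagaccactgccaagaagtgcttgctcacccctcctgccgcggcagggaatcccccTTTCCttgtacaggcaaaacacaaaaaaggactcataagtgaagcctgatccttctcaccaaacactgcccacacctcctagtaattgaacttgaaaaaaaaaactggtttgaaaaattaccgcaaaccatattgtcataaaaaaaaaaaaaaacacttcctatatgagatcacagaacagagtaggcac
The Il2 window held 2 matches, with first letters 137 and 47 bases before the RefSeq start, and the Il2ra window held 1, at 190 bases. Each window searched was the 250 bases before the RefSeq start, of which the printed Il2 stretch shows 245 and leaves out those nearest the start. At least 1 match was found in 55.6% of 32851 promoters over the same 250 bases, so a match is common. A TATA box searched as TATAAA on both strands lay 31 bases before the Il2 start, was absent as these letters from the Il2ra and Il2rg windows and was present in 12.4% of all promoters. The letters TGANTCA (AP-1) and TTCNNNGAA (STAT) were in none of the 3 windows, against 6.75% and 7.02% of all promoters. The members also differ at the other end of the transcript, where the letters ATTTA mark mRNAs that are degraded fast. The annotated untranslated end after the stop codon held 7 copies in 581 bases for Il2, 4 in 3411 for Il2ra, 2 in 2220 for Il2rb and 0 in 474 for Il2rg. Per kilobase the Il2 density of 12.05 was reached by 0.7% of 21000 genes compared. The densest 30 bases of the Il2 end, are shown with 4 copies in capitals; the stretch begins at base 35 after the stop codon.
Il2, chr3:37121040-37121069, minus strand: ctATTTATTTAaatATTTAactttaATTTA

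Recovered reads per library ranged from 13222831 to 17069569 and all 4 genes were far from the filter on low values in every library. Trim28 read 4262 and 4323 in the control and 415 and 458 in the knockout libraries. The cells carried Cd3e and Cd8a at 2143 or more in each library. Of the 10 CD8 T cell markers 3 rose and 6 fell in the knockout, where they summed to 45036 to 45602 against 47300.5 to 48301 in control. With the antibody 1 rose and 8 fell, among them Cd28 (-1.89), Cd2 (-1.81), Cd247 (-1.05) and Thy1 (-0.79), and the sum was 50243 to 52964 against 73992 to 74854 in untreated libraries. These markers fell in the same libraries as Il2ra and Il2rb, and their part in those results was not tested. Cd4, which defines helper T cells, lay between 0 and 9.55 and the NK receptor gene Ncr1 was at 0 in all 8 libraries. Other lineage lists were not near 0. The 9 B cell markers, mostly Ighm, summed to 1594 to 1626 in control and 2207 to 2235 in knockout libraries. In untreated libraries they summed to 3030 to 3042, and in blocked libraries to 4633 to 4974. The 11 myeloid and dendritic markers summed to 412 to 561 and the 8 erythroid and stromal markers to 861 to 1492. The part of these lists was not tested. In these bulk samples fewer cells of a type and less RNA per cell cannot be told apart. The 2 tables were normalised separately, so levels are compared only within an experiment.

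Loss of Trim28 lowered the transcripts of IL-2 and of the alpha and beta chains and raised that of the gamma chain, so all 4 genes passed the test, 3 lower and 1 higher, where 61% of all genes tested passed in either direction. With the antibody against IL-2, Il2ra, Il2rb and Il2rg fell and Il2 did not pass, 3 of 4 genes against 60.3% of all genes tested. Their median log2 fold change was -0.26 in the knockout (0.031 over all genes tested) and -0.59 with the antibody (0.018 over all genes tested). The 2 effects differed for all 4 genes, 3 of them with a higher and 1 with a lower value in the knockout, where 32.3% of all genes tested differed. Each effect comes from its own experiment with its own reference cells, and a stimulation time is given for the second only. A difference between knockout and antibody therefore cannot be told apart from a difference between the experiments, here and for each gene below.

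Il2, the gene of the cytokine, had normalised read counts of 9299 and 9217 in the control libraries and 5246 and 5410.2 in the knockout libraries. Both knockout libraries were well below both control libraries, and the 2 libraries within a group lay close together. The log2 fold change was -0.80 (SE 0.027, 95% interval -0.86 to -0.73, adjusted p = 1.29e-05), or 1.74-fold lower, and 9.45% of all genes tested had a lower value. In the other experiment the counts were 17226 and 16739.7 without and 18716 and 17835 with the antibody. The blocked libraries were both the higher ones, but the gap between the groups was narrower than that between the blocked libraries. Il2 missed the threshold, with a log2 fold change of 0.11 (SE 0.049, 95% interval 0.0019 to 0.21, adjusted p = 0.0731). It passed as the higher value with the antibody when all 8 libraries were fitted together (adjusted p = 0.0379). Without blocked replicate A the log2 fold change was 0.071, and without blocked replicate B it was 0.14. Il2 was called there too, but with 1 blocked library left such a call takes no account of the spread between the blocked libraries. The knockout effect on Il2 lay below the antibody effect by 0.90 on the log2 scale (95% interval of the difference -1.02 to -0.79, adjusted p = 1.37e-05). In the authors' deposited table, which codes the reference over the treated group, the log2 fold changes of Il2 were 0.80 for the knockout and -0.11 for the antibody (adjusted p = 0.0593).

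Il2ra, the alpha chain, moved little in the knockout and strongly with the antibody. Its counts were 26819 and 27387 in control and 24794 and 23967 in knockout libraries. The groups did not overlap, and the log2 fold change was -0.15 (SE 0.026, 95% interval -0.22 to -0.090, adjusted p = 0.0033), a size that 74.8% of all genes tested exceeded in either direction. Leaving out knockout replicate 2 ended the call (-0.13, adjusted p = 0.0526). With the antibody the counts went from 44645 and 43661 to 22025 and 21937, so both blocked libraries lay at about the same level, far under both untreated ones. The log2 fold change was -1.01 (SE 0.049, adjusted p = 1.8e-12), or 2.01-fold lower. The 2 effects differed by 0.85 (95% interval 0.74 to 0.96, adjusted p = 1.31e-05). Regulatory T cells carry high CD25, and their defining gene Foxp3 was tested among 8 markers of CD4 and regulatory T cells, of which Cd4 was too low to test. Foxp3 read 4.06 and 5.07 in control against 43.3 and 49.0 in knockout, and 58.2 and 50.5 in untreated against 8.59 and 9.59 in blocked libraries. In the knockout Foxp3 (3.09) and Nrp1 (0.26) rose, while Cd40lg (-2.95), Il1rl1 (-2.18), Zbtb7b (-1.27), Ikzf2 (-0.84) and Rora (-0.52) fell. With the antibody Foxp3 (-2.45), Il1rl1 (-3.00), Nrp1 (-0.69) and Zbtb7b (-0.51) fell, while Ikzf2 (0.90), Rora (0.60) and Cd40lg (0.49) rose. The markers thus did not move as one. Nrp1, at 2430.2 to 2988 in the first experiment and 2813 to 4706 in the second, made up most of their sum in control, knockout and untreated libraries. The 8 markers summed to 3812 to 3952 in control and 3514 to 3661 in knockout, and to 6856 to 6997 in untreated and 5788 to 6106 in blocked libraries, with Cd4 near 0 in each. Their part in the Il2ra result was not tested.

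Il2rb, the signalling beta chain, had counts of 5745 and 5596 in control and 4464 and 4375 in knockout libraries. The knockout libraries were lower without overlap, with a log2 fold change of -0.36 (SE 0.028, 95% interval -0.43 to -0.29, adjusted p = 0.000166), or 1.28-fold. The antibody took it from 10555 and 10426.5 to 3432 and 3557, the largest change among the 4 genes in either experiment. Both blocked libraries were far under both untreated ones. The log2 fold change was -1.59 (SE 0.049, 95% interval -1.69 to -1.48, adjusted p = 1.71e-15), or 3.00-fold lower, and 5.19% of all genes tested had a lower value. The effects of knockout and antibody differed by 1.23 (95% interval 1.12 to 1.33, adjusted p = 2.4e-06). NK cells carry high CD122, and the 9 markers of NK and innate lymphocytes summed to 1587 in both control and 412 to 422 in knockout libraries, and to 2779 to 2785 in untreated and 517 to 520.3 in blocked libraries. Klrk1, the gene of the receptor NKG2D that activated CD8+ T cells also express, made up most of the sum in control (1373 and 1404) and untreated libraries (2379.9 and 2377) and in blocked libraries (348 and 341), and less of it in knockout libraries (175 and 136). Eomes, a transcription factor gene on the same list, rose in the knockout (0.60, adjusted p = 0.00228) and fell with the antibody (-1.14). Its knockout call did not hold without knockout replicate 2 (log2 fold change 0.52). Klrk1 (-3.16 and -2.78) and, at few reads, Klre1 (-2.76 and -2.97) fell in both experiments. Ncr1 and Klra8, also on the list, were at 0 in all 8 libraries. The part of the NK and innate markers in the Il2rb result was not tested.

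Il2rg, the common gamma chain, was the only one of the 4 genes that rose in the knockout. Its counts were 8610.2 and 8216 in control and 10471 and 10516 in knockout libraries, with both knockout libraries higher. The log2 fold change was 0.32 (SE 0.030, 95% interval 0.25 to 0.39, adjusted p = 0.00032), or 1.25-fold. With the antibody the counts went from 9444 and 9112 to 7859 and 8687. The blocked libraries were both lower, and they lay further apart than the libraries of the other 3 groups. The log2 fold change was -0.17 (SE 0.054, 95% interval -0.28 to -0.055, adjusted p = 0.0116), and the call did not hold without untreated replicate 1 (adjusted p = 0.235), without untreated replicate 2 (0.0945) or without a filter on low values (0.153). The difference of the 2 effects was 0.49 (95% interval 0.32 to 0.65, adjusted p = 0.00175). The authors' deposited table gave -0.32 and 0.17 for Il2rg, coded as reference over treated, with adjusted p = 0.0127 for the antibody.

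**Figure D1:**
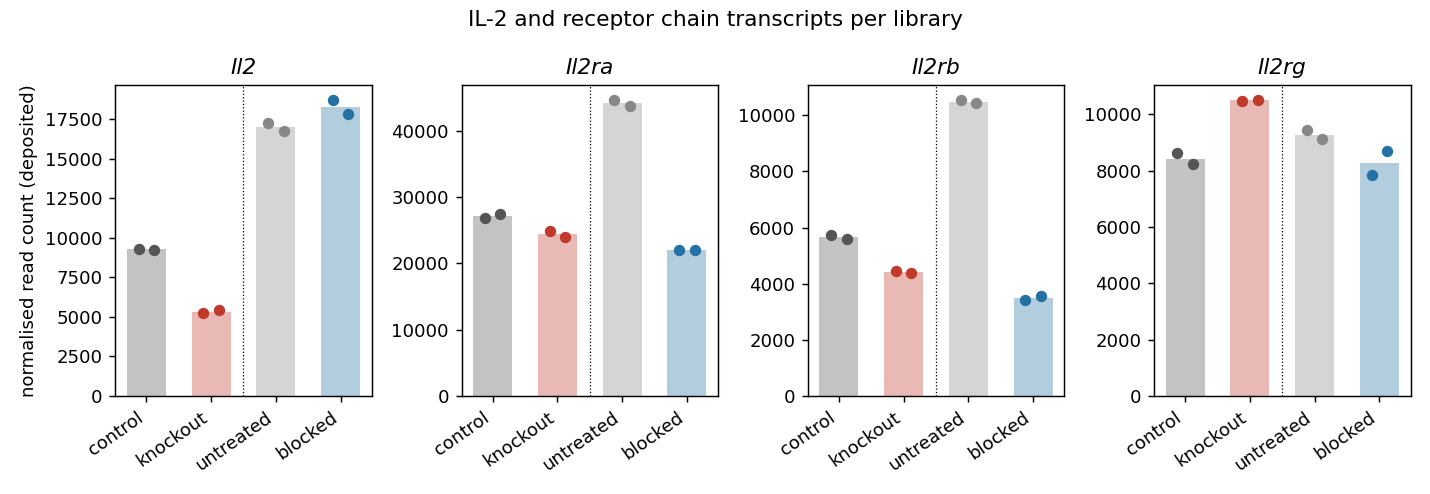
Deposited normalised read counts (vertical axes from 0, a separate scale for each gene) of Il2, Il2ra, Il2rb and Il2rg in the 2 libraries of each group (points), with the group mean as a bar; the dotted line separates the experiments, which were normalised separately. Il2 fell in the knockout libraries, to 5246 and 5410.2, and Il2rb was lowest in the blocked libraries, at 3432 and 3557.

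**Figure D2:**
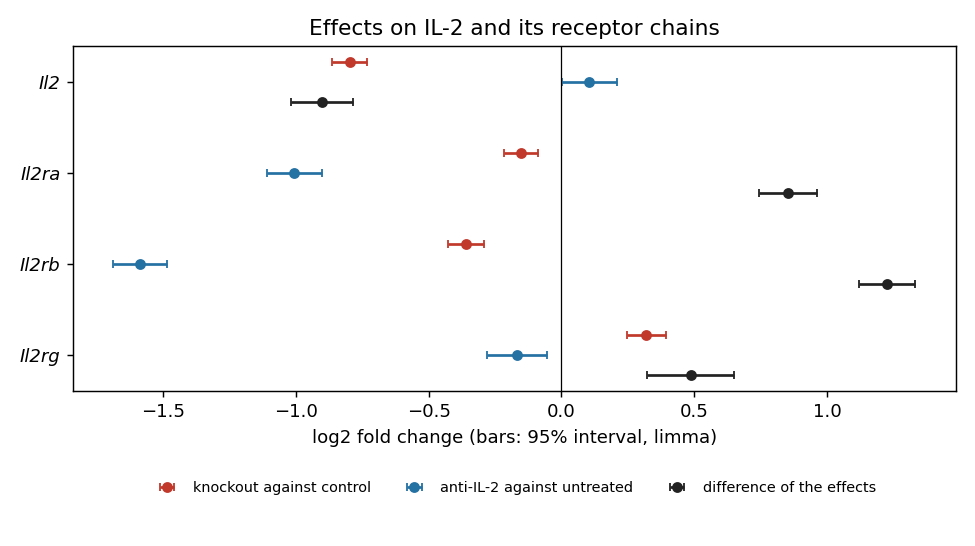
Log2 fold changes (horizontal axis) of the 4 genes in the knockout against control, with the antibody against untreated, and the difference of these effects, with 95% intervals from limma. The antibody points of Il2ra (-1.01) and Il2rb (-1.59) lie left of their knockout points (-0.15 and -0.36), while for Il2 the order is turned (0.11 and -0.80).

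Read counts scaled to exon length and library depth (RPKM) allow levels of the 4 genes to be set against each other. Il2 was the most abundant per length in each group, at 603 ± 2.54 RPKM in control, 353 ± 7.51 in knockout, 862 ± 10.6 in untreated and 979 ± 37.6 in blocked cells (SD, n = 2). In control cells its order among 21305 protein-coding genes was 43 and in knockout cells 98, and among 21507 it was 23 in untreated and 18 in blocked cells. Il2ra followed in control (354 ± 5.98 RPKM), untreated (449 ± 3.53) and blocked cells (236 ± 1.69). Il2rg came next, at 263 ± 8.15 in control, 226 ± 3.92 in untreated and 212 ± 14.1 in blocked cells. Il2rb was the lowest in all 4 groups, at 98.5 ± 1.63 in control, 78.1 ± 1.15 in knockout, 142 ± 0.104 in untreated and 49.9 ± 1.05 in blocked cells. In knockout cells Il2 (353 RPKM), Il2rg (333 ± 0.821) and Il2ra (323 ± 7.93) lay within 1.06-fold and 1.03-fold of their neighbour, about as near as the libraries of a group. That part of the order depends on the length used: with the longest transcript in place of the union of exons, Il2rg (476 RPKM) and Il2ra (419) stood above Il2 (353) in the knockout. In blocked cells Il2ra and Il2rg were 305 and 304 RPKM on that length and could not be ordered. Il2rb stayed lowest and Il2 stayed highest in the other 3 groups with either length.

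**Figure D3:**
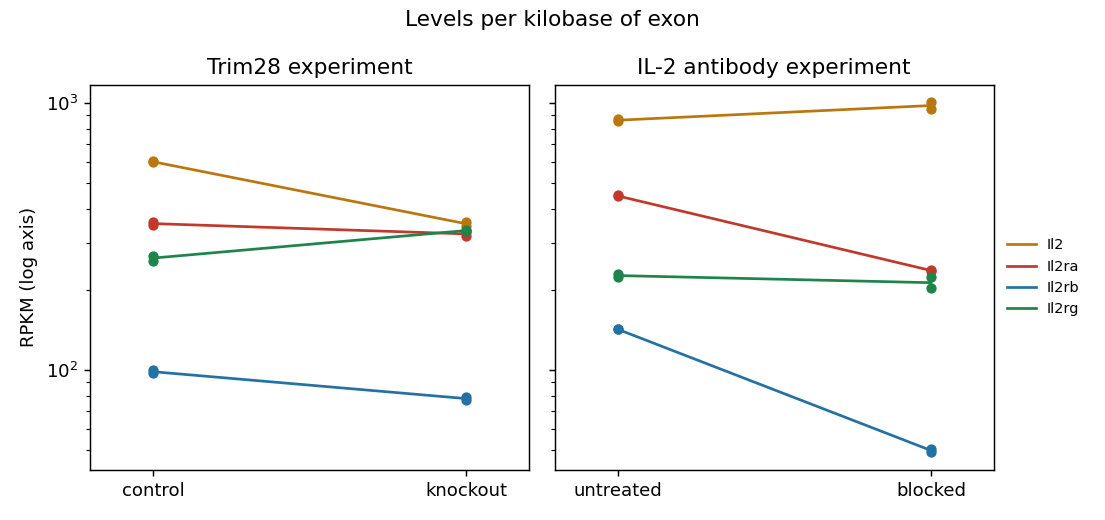
RPKM (log axis) of the 4 genes in each library (points), with lines joining group means within each experiment. Il2 is at the top in every group, Il2rb at the bottom, and Il2, Il2ra and Il2rg come together in the knockout at 353, 323 and 333 RPKM.

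The make-up of the receptor transcripts was compared as ratios within a library, which do not depend on the scaling between libraries. The Il2rb to Il2rg ratio per length was 0.372 and 0.379 in control against 0.237 and 0.232 in knockout libraries, and 0.622 and 0.637 in untreated against 0.243 and 0.228 in blocked libraries. It was lower in the knockout and in the blocked cells, by 1.60-fold and 2.67-fold. The Il2ra to Il2rg ratio was 1.30 and 1.39 in control against 0.990 and 0.953 in knockout libraries, and 1.98 and 2.00 in untreated against 1.17 and 1.06 in blocked libraries. It too was lower in both, by 1.39-fold and 1.79-fold. The Il2ra to Il2rb ratio went the other way, from 3.50 and 3.67 to 4.17 and 4.11 in the knockout and from 3.18 and 3.14 to 4.82 and 4.63 with the antibody. The groups did not overlap in any of the 6 comparisons of a ratio. An exact two-sided permutation test of 2 against 2 libraries cannot go below p = 0.333, and each of the 6 gave that value (0.333 after adjustment over the 6).

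Below the receptor, kinases and STAT factors moved in both directions. Of 19 tested genes of the signal relay, 8 rose and 5 fell in the knockout and 6 rose and 8 fell with the antibody, beside 32.9% higher and 28.2% lower, and 31.4% higher and 28.9% lower, over all genes tested. Their medians were 0.048 and -0.055 (0.031 and 0.018 over all genes tested). The count of relay genes lower in the knockout was 3 without a filter and 3 with DESeq2. Stat5a, which carries the IL-2 signal to the nucleus, read 8618 and 8421 in control and 13784 and 13733 in knockout libraries (log2 fold change 0.69, SE 0.024), and 17738 and 17761 in untreated against 13883 and 14990.3 in blocked libraries (-0.30, SE 0.051). Stat5a was thus higher in the knockout and lower with the antibody, and its effects differed by 0.99 (adjusted p = 1.53e-05). Its close relative Stat5b rose in the knockout (0.72) and did not pass with the antibody (-0.055, adjusted p = 0.347). Jak3, the kinase on the gamma chain, did not pass in the knockout (-0.015, adjusted p = 0.76) and fell with the antibody (-0.34). Jak1, the kinase on the beta chain, fell in the knockout (-0.19) and did not pass with the antibody (-0.060, adjusted p = 0.299). Stat3 fell with the antibody (-0.67), and the kinase gene Map2k1 rose in both (0.52 and 0.56).

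The brakes on the receptor contain the feedback inhibitors that STAT5 itself induces. Cish, such an inhibitor, read 7373 and 7395 in control and 4455 and 4473 in knockout libraries, and 6571 and 6583 in untreated against 744 and 759 in blocked libraries. It was lower in both, with a log2 fold change of -0.73 (SE 0.024) in the knockout and -3.13 (SE 0.053) with the antibody. Socs3 (-1.37 and -3.74), Socs2 (-1.18 and -3.07) and Socs1 (-0.22 and -1.24), which also block JAK signalling, fell in the knockout and with the antibody. The Socs1 call in the knockout was lost with DESeq2 (adjusted p = 0.0946) and when all 8 libraries were fitted together (0.0630). For these 4 inhibitors the antibody effect was the larger, with differences of 1.02 to 2.40 (adjusted p between 1.16e-07 and 0.000626). The phosphatase gene Ptpn6 rose in both (0.67 and 0.92). Of the 10 brakes 2 rose and 6 fell in the knockout and 1 rose and 7 fell with the antibody (32.9% higher and 28.2% lower, and 31.4% higher and 28.9% lower, over all genes tested), with medians of -0.13 and -0.28 (0.031 and 0.018 over all genes tested). The count of brakes lower in the knockout was 3 with DESeq2. That of brakes higher with the antibody was 2 when all 8 libraries were fitted together.

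**Figure D4:**
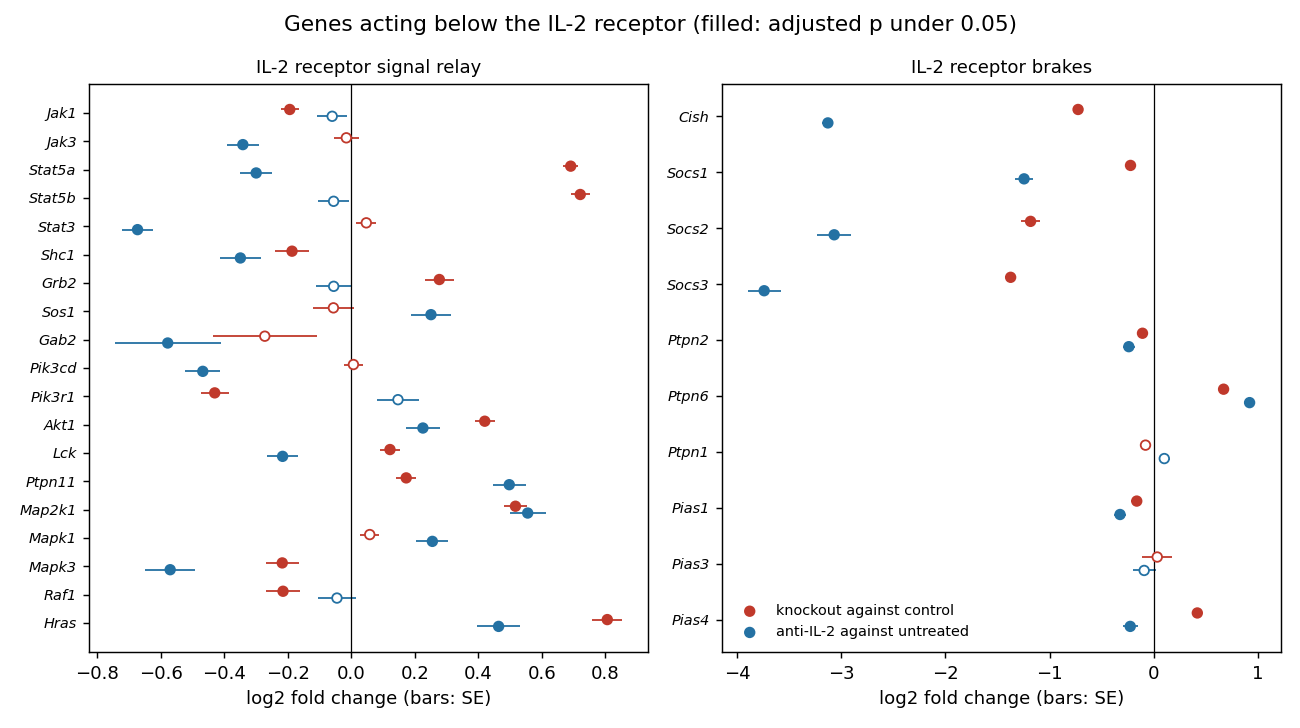
Log2 fold changes (horizontal axes, separate scales; bars are standard errors) of the tested genes of the signal relay and of the brakes, in the knockout and with the antibody; filled points passed at an adjusted p under 0.05. Cish, Socs2 and Socs3 lie at -3.13, -3.07 and -3.74 with the antibody, and Stat5a and Stat5b at 0.69 and 0.72 in the knockout.

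Receptors and cytokines of the gamma chain family and its relatives moved in both directions. Il7r, the receptor chain for IL-7, fell in both (-2.88 and -3.32), and Il4ra, the chain for IL-4, also fell (-0.20 and -0.69). Il21r rose in the knockout (0.69) and did not pass with the antibody (-0.027, adjusted p = 0.646). Il15ra, which lies next to Il2ra, did not pass in the knockout (-0.088, adjusted p = 0.237) and passed as higher with the antibody (0.16, adjusted p = 0.023). That call was lost without a filter (adjusted p = 0.0623), with DESeq2 (0.141) and without untreated replicate 1 (0.107) or 2 (0.261), and without control replicate 1 Il15ra was called lower in the knockout (-0.16, adjusted p = 0.0419). Crlf2, the receptor chain for TSLP, pairs with Il7r and does not use the gamma chain. It fell with the antibody (-0.74) and passed as lower in the knockout (-0.16, adjusted p = 0.0383). The knockout call was lost with the replicate block (adjusted p = 0.0518), with DESeq2 (0.219), without a filter (0.109), when all 8 libraries were fitted together (0.119), and without knockout replicate 1 (0.132, log2 fold change -0.10), control replicate 1 (0.0761) or control replicate 2 (0.104). Of the 14 listed cytokines and receptors 7 and 8 were tested, with 1 higher and 4 lower in each experiment and medians of -0.16 and -0.36 (0.031 and 0.018 over all genes tested). Over all genes tested 32.9% higher and 28.2% lower in the knockout and 31.4% higher and 28.9% lower with the antibody were called. The count of genes higher was 2 in the knockout with edgeR, a pseudocount of 5, the replicate block, all 8 libraries together or control replicate 2 left out, which also left 2 lower. With the antibody it was 0 with DESeq2, without a filter or without either untreated replicate, and 2 without blocked replicate A. Il4, Il7 and Il9, the genes of other cytokines of the family, and Il13, a relative of Il4 whose receptor does not need the gamma chain, had no more than 12.4 in any library.

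Genes known to be induced by IL-2 fell for the most part with the antibody and split evenly in the knockout. Of 27 tested, 6 rose and 20 fell with the antibody (median -0.80) and 11 rose and 11 fell in the knockout (median -0.018). Over all genes tested the shares were 31.4% higher and 28.9% lower with the antibody (median 0.018) and 32.9% higher and 28.2% lower in the knockout (median 0.031). The difference of the 2 effects was higher for 22 of them and lower for 3, against 19% higher and 13.3% lower over all genes tested. Gzmb (granzyme B) and Ifng (interferon gamma) fell in both experiments (-1.52 and -6.00, -2.38 and -5.38). Prf1, the gene of perforin, did not pass in the knockout (0.085, adjusted p = 0.061) and fell with the antibody (-2.36). The cytokine gene Lta rose in the knockout (0.77) and fell with the antibody (-2.34). The 6 that rose with the antibody were the survival gene Bcl2l1 (0.43), the cyclin gene Ccnd3 (0.45), the TNF receptor family genes Tnfrsf1b (0.52) and Tnfrsf18 (0.31), the amino acid transporter gene Slc7a5 (0.25) and Tfrc, the transferrin receptor gene (0.47). Of the 12 genes that IL-2 is known to lower, 4 rose and 6 fell with the antibody (median -0.36), and 4 rose and 7 fell in the knockout (median -0.60). The share that rose is near that of all genes tested, 31.4% with the antibody and 32.9% in the knockout, where 28.9% and 28.2% fell. Id3 and Tcf7, transcription factor genes of less differentiated cells, rose in both (1.26 and 1.89, 0.34 and 0.83). Il7r and Bcl6, which are on the same list, fell in both (-2.88 and -3.32, -0.51 and -1.08).

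Factors that bind the Il2 promoter changed in both directions. Of 26 tested, 11 rose and 12 fell in the knockout and 8 rose and 16 fell with the antibody (medians -0.024 and -0.42). Over all genes tested the shares were 32.9% higher and 28.2% lower in the knockout and 31.4% higher and 28.9% lower with the antibody, so the share higher with the antibody is near the background. The NFAT genes Nfatc1 and Nfatc2 fell in both (-0.67 and -0.61, -0.70 and -0.87), while Nfatc3 rose in both (0.66 and 0.79). The AP-1 genes Fosl2 (-0.82 and -1.38), Jun (-0.62 and -1.54), Fos (-0.18 and -1.39) and Fosb (-0.40 and -2.47) fell in both. Batf, on the same list, rose in both (0.95 and 1.81). Junb (0.30) and Jund (0.56) rose in the knockout. With the antibody neither passed (-0.089, adjusted p = 0.217, and 0.12, adjusted p = 0.0861). Crem, which is known to repress Il2, fell in both (-1.24 and -2.10). Ikzf3, the gene of Aiolos, rose in the knockout (0.47) and fell with the antibody (-1.80). Of 20 factors of the Il2ra and Il2rb regulatory regions, 8 rose and 7 fell in the knockout and 4 rose and 11 fell with the antibody (medians 0.021 and -0.21), beside 32.9% higher and 28.2% lower and 31.4% higher and 28.9% lower over all genes tested. Runx3 (-0.77 and -1.29) and Tbx21, the gene of T-bet (-0.89 and -1.65), fell in both, and Smad3 fell with the antibody (-1.41) and was at 0.013 in the knockout (adjusted p = 0.817). Of 15 genes acting on Il2 mRNA decay, 10 rose and 4 fell in the knockout and 10 rose and 2 fell with the antibody (medians 0.27 and 0.20), beside the same shares over all genes tested. Zfp36, whose protein binds ATTTA-rich ends such as that of Il2 and speeds their decay, fell in both (-0.45 and -1.25). Its relative Zfp36l1 rose in the knockout (0.60) and did not pass with the antibody (-0.092, adjusted p = 0.118).

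The genes with profiles most like each of the 4 were found over 8 libraries as log2 deviations from the reference libraries, among 9925 genes, by the root mean square difference. Nearest to Il2 were Rilpl2 (0.039), Fundc2 (0.041), Nr2c2 (0.050) and Dusp16 (0.063). Nearest to Il2ra were Sptlc1 (0.037), Pik3ap1 (0.047), Rnf149 (0.049) and Creb3l2 (0.050). Nearest to Il2rb were the kinase gene Map2k3 (0.053), Gm12854 (0.060), a processed pseudogene whose reads may belong to a parent gene, Phlda1 (0.063) and Tnf, the gene of tumour necrosis factor (0.068). Nearest to Il2rg were Zfp668 (0.021), Map2k2 (0.022), Ctsz (0.027) and Tpp1 (0.028). None of the 4 genes was among the 4 nearest of another. The closest pair, Il2ra and Il2rb, differed by 0.31, and Il2 and Il2rb by 0.87. Il2ra ranked 243 in nearness to Il2rb, and Il2rb ranked 923 in nearness to Il2ra.

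In the knockout the 4 nearest tested protein-coding genes around Il2 all fell, as Il2 did, while with the antibody 3 of them fell and 1 rose. Over all genes tested 28.2% were lower in the knockout, and 28.9% were lower and 31.4% higher with the antibody. Il21, 96.8 kb from Il2, went from 37.5 and 41.6 to 1.97 and 5.88 in the knockout and from 20.8 and 18.5 to 3.82 and 5.75 with the antibody, at few reads. On the other side Adad1, which overlaps Il2 on the opposite strand outside its exons, fell in the knockout (-0.66) and rose with the antibody (0.39). Beyond it 4932438A13Rik fell in both (-1.20 and -1.07), as did Cetn4 (-0.77 and -1.81) on the side of Il21. The Adad1 calls did not hold with DESeq2 (adjusted p = 0.183 and 0.0760), nor did the antibody call without a filter (0.108) or without untreated replicate 2 (log2 fold change 0.24, adjusted p = 0.139). Around Il2ra, Rbm17 (0.28 and 0.45) and Pfkfb3, a regulator of glycolysis (0.43 and 0.67), rose in both. Fbh1, tested with the antibody only, rose there (0.54). Around Il2rb, Kctd17 rose in the knockout (0.61, adjusted p = 0.0142) and fell with the antibody (-0.85). The Kctd17 call in the knockout was lost without a filter (adjusted p = 0.0967) and with DESeq2 (0.175). Beyond it Mpst did not pass in the knockout (-0.11, adjusted p = 0.28) and fell with the antibody (-0.38). On the other side C1qtnf6 fell with the antibody (-1.82) and did not pass in the knockout (0.11, adjusted p = 0.517). Rac2 rose in the knockout (0.16) and did not pass with the antibody (-0.027, adjusted p = 0.708). The Rac2 call in the knockout was lost without knockout replicate 1 (adjusted p = 0.0517) or 2 (0.0533) and when all 8 libraries were fitted together (0.0589). With the antibody Rac2 was called lower without blocked replicate B (-0.13) and higher without blocked replicate A (0.074). Around Il2rg, Nlgn3 fell in both (-3.33 and -1.72). Both Nlgn3 calls were lost without a filter (adjusted p = 0.246 and 0.053). The knockout call was also lost with DESeq2 (0.331), and the antibody call when all 8 libraries were fitted together (0.194). Gm614 passed in neither (0.20, adjusted p = 0.41, and -0.37, adjusted p = 0.432). Foxo4 also passed in neither experiment (-0.019, adjusted p = 0.796, and -0.20, adjusted p = 0.107). It was called lower with the antibody without untreated replicate 1 (-0.31, adjusted p = 0.0456). Med12 was at 0.12 in the knockout (adjusted p = 0.0221), a call that was lost under 10 alternatives, among them TMM scaling (0.087, adjusted p = 0.0640), upper-quartile scaling (0.051, adjusted p = 0.220) and DESeq2 (0.086, adjusted p = 0.353), and without knockout replicate 1 (adjusted p = 0.124), knockout replicate 2 (0.0825) or control replicate 2 (0.108). With the antibody Med12 was called higher only without blocked replicate A among the alternatives run (0.16, adjusted p = 0.000508).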

How the data were processed

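PolyA RNA of CD8+ T cells was measured in 8 libraries, 2 in each of 4 groups. Tools named in the submitters' processing notes are HISAT2 2.2.1, Trim Galore 0.4.4, DESeq2 and StringTie 2.1.4, with the build mm10; the gene counter, annotation and filters are not given in the sources used here. The authors deposited, per library, a normalised signal: gene read counts divided by a size factor, scaled within each of the 2 tables. They also deposited log2 fold changes with standard errors (a score column here), p-values and adjusted p-values, which are quoted only as such. Dividing each column by its smallest value above 0 returned whole reads for 100% of values within a tolerance of 0.001, giving 13222831 to 17069569 reads per library.

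Genes reaching a deposited value of 10 in 2 or more libraries were compared on the log2 (value + 1) scale, which understates the change of weakly expressed genes, by limma 3.58.1 with a trended prior variance (R 4.3.3). All p-values were then adjusted over all genes tested by the method of Benjamini and Hochberg, with a threshold of 0.05. The difference of the 2 effects was a contrast in a fit of all 8 libraries. Alternatives were edgeR 4.0.16 and DESeq2 1.42.0 on recovered reads, other scalings, pseudocounts and filters, the replicate block, and leaving out each library. The limma procedure was also run on simulated counts, whose outcome is not given here. RPKM (reads scaled to exon length and library depth) used GENCODE M21 exon lengths on GRCm38, the build called mm10. Promoter sequences came from RefSeq on GRCm38.p6, which matched 3 of the 4 genes (Il2rb was not among them). The 4 genes, the 8 pathway lists and the naming rule were chosen with earlier results of these data known. Named were the 4 genes, Trim28, 11 fixed signalling and receptor genes, up to 4 genes per list and comparison with the smallest adjusted p, the 4 closest profiles and the nearest tested protein-coding neighbours. List genes outside this rule were named after their values were seen. Some were named to complete a count and others (Lta, Bcl6, Nfatc1, Nfatc2, Nfatc3, Fos, Junb, Jund, Batf) as examples of a direction.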

Additional observations from a re-analysis of the deposited data

How the results depend on the processing

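The difference between the knockout and antibody effects kept its direction and its side of the threshold for all 4 genes under all 17 alternatives run, with Il2 from -0.94 to -0.87, Il2ra from 0.81 to 0.88, Il2rb from 1.19 to 1.25 and Il2rg from 0.41 to 0.56. The same held for Il2, Il2rb and Il2rg in the knockout (15 alternatives each) and for Il2ra and Il2rb with the antibody (14 each). Il2ra in the knockout ranged from -0.18 to -0.13 when 1 library was left out and lost its call without knockout replicate 2 (-0.13, adjusted p = 0.0526). With the antibody Il2rg ranged from -0.24 to -0.095 and Il2 from 0.071 to 0.14 when 1 library was left out. Il2rg lost its call without untreated replicate 1 or 2 and with no filter (-0.17, adjusted p = 0.153), where many more genes are tested. Il2 gained a call when all 8 libraries were fitted together (0.11, adjusted p = 0.0379) and without blocked replicate A or B, where 1 blocked library was left. The cause of these changes was not tested. Genes called in the knockout numbered 5065 higher and 4344 lower. With TMM scaling they numbered 4670 and 4707, and with upper-quartile scaling 4259 and 5078, so the larger side changed. They were 2846 and 2660 with DESeq2, 3336 to 4704 higher and 2977 to 3544 lower when 1 library was left out, with 3336 without knockout replicate 1 and 3361 without knockout replicate 2. The difference of effects was called for 2945 and 2051 genes, and for 1588 and 1296 with DESeq2. Signs turned for 8 genes with no call to begin with. In the knockout these were Pik3cd (-0.027 with TMM scaling, -0.062 with upper-quartile scaling, -0.027, -0.028 and -0.028 with edgeR TMM, edgeR RLE and DESeq2, -0.022 to 0.036 when 1 library was left out) and Smad3 (-0.021, -0.057, -0.021, -0.022 and -0.022 in the same order, -0.0083 to 0.034 when 1 library was left out). Others were Stat3 (-0.022 with upper-quartile scaling), Jak3 (-0.065 to 0.034) and Gm614 (-0.047 to 0.45, both when 1 library was left out). With 1 library left out, the antibody values ranged from -0.030 to 0.14 for Fundc2, -0.0014 to 0.065 for Dusp16 and -0.13 to 0.074 for Rac2, each turning without blocked replicate A (Rac2 then called, adjusted p = 0.0313). The replicate numbers are shared between control and knockout but no label says that they mark a common mouse or day, and deviations of same-numbered libraries correlated at 0.013 over genes. With a replicate block the knockout calls were 4881 higher and 4197 lower, and Il2, Il2ra, Il2rb and Il2rg stayed called (adjusted p = 1.23e-05, 0.01, 0.000254 and 0.000459). For the antibody experiment no paired analysis was possible because the blocked columns carry no replicate number. With the longest transcript as length, the order of the 4 genes changed in the knockout only in its upper 3 places. Counting error of the 4 genes was 0.486% to 1.67% of their level. The SD between libraries was smaller than that for Il2 in control, Il2rb in knockout and untreated, and Il2rg in knockout cells, so with 2 libraries per group such an SD can understate the spread.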
